A study of Danio rerio with 18 samples.

Results

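The genes described here are the Notch receptors and their Delta and Jagged ligands in whole zebrafish (Danio rerio) embryos: 10 genes of the 25535 in the deposited table. They were taken by name: the receptors notch1a, notch1b, notch2 and notch3, the Delta ligands dla, dlb, dld and dll4, and the Jagged ligands jag1b and jag2b. The symbol table gives dlb, dll4, jag1b, jag2b and notch2 by their zebrafish names and notch3 (ENSDARG00000052139) as NOTCH3. It gives 2 genes as NOTCH1, of which ENSDARG00000052094 is notch1b and the other, ENSDARG00000103554, was taken as notch1a. It gives 2 genes as DLL1, ENSDARG00000010791 and ENSDARG00000020219, which were taken as dla and dld. The files do not pair either identifier with dla or dld, so both are called DLL1 with their identifiers. The symbol DLD also occurs in the table, for ENSDARG00000008785, but in capitals it is the human name of dihydrolipoamide dehydrogenase, a mitochondrial enzyme, and that gene was not counted as a Delta ligand. All 10 genes passed the filter on low values, which asked for at least 1 CPM (the count scaled to library size) in at least 3 libraries.

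Notch receptors are membrane proteins that are cut when a Delta or Jagged ligand on a neighbouring cell binds them. The freed intracellular part joins the DNA-binding protein RBPJ in the nucleus and switches on target genes, many of them her and hes repressors. In the zebrafish embryo the pathway keeps neural progenitors from differentiating all at once, takes part in forming somite boundaries and helps to sort artery from vein and sprouting from non-sprouting endothelial cells.

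RNA was sequenced from 18 libraries in 6 groups of 3, each library a pool of 20 to 25 whole embryos. The groups were a her3 -/- line, titled her3_38aa, at 24 and at 72 hours post fertilisation (hpf), WIK embryos that received a her3 morpholino (her3-MO) at the 1- to 4-cell stage, collected at 24 hpf, WIK embryos that received a mismatch morpholino (mm-MO) at the same stage, also collected at 24 hpf, and wild-type WIK embryos with no treatment listed, at 24 and at 72 hpf. WIK is a laboratory wild-type strain, her3 encodes a repressor of the Hairy/E(spl) family, and a morpholino is an antisense oligomer that blocks the use of a transcript. The labels name neither the method that made the allele of the line nor its parental strain. In a difference of the line from WIK, the her3 allele and the background of the line therefore cannot be told apart. Below, "knockout effect" stands for that difference. The submitters call the replicates biological, so the error behind each p-value is that among pools of embryos. In the main fit that error is estimated for each gene over all 6 groups together, not over the compared groups alone.

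The libraries held between 14214136 and 23135995 reads, with the fewest in WIK at 24 hpf replicate 1. The her3 transcript was higher in both groups in which the gene was targeted: it stood at 22.1 ± 0.0623 CPM in the libraries labelled knockout and 10.03 ± 0.916 CPM in WIK at 24 hpf, and at 35.9 ± 5.15 CPM with her3-MO and 7.87 ± 0.214 CPM with mm-MO (SD, n = 3 each). A transcript level does not test whether protein was lost, so every direction below follows the labels, and "the line" stands for the libraries labelled knockout. At 72 hpf her3 stood at 2.15 ± 0.313 CPM in the line and 1.35 ± 0.114 CPM in WIK. In 4 groups 1 library stood apart from the other 2 in its counts: knockout at 72 hpf replicate 3, her3-MO replicate 1, mm-MO replicate 3 and WIK at 24 hpf replicate 1. The mm-MO replicate 3 had the lowest CPM of its group for 10 of the 10 receptor and ligand genes, and WIK replicate 1 at 24 hpf for 7 of the 10. Knockout replicate 3 at 72 hpf was lowest for 4 of the 10 and her3-MO replicate 1 for 2. The same count was not made over all genes, so it is not read as a trait of the 10 genes. Results are therefore also given without these 4 libraries, which leaves 2 in each of the 4 groups. They were picked after the values were seen, because they lay farther from their replicates than these from each other. Knockout replicate 3 at 72 hpf lay the least far. The chi-square of its counts per degree of freedom was 10.41 and 6.11 against its replicates, beside 3.76 between them. For the other libraries left out it was 18.45 to 31.86. Leaving the 4 libraries out tends to narrow the spread, so p-values of those fits tend to be too low. They are given as description, not as added support. Markers of neural progenitors, neurons, endothelium, muscle, erythroid cells and skin had a read in every library for every gene of their lists, and those of presomitic mesoderm for 6 of 6 genes at 24 hpf and 5 of 6 at 72 hpf.

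**Figure D1:**
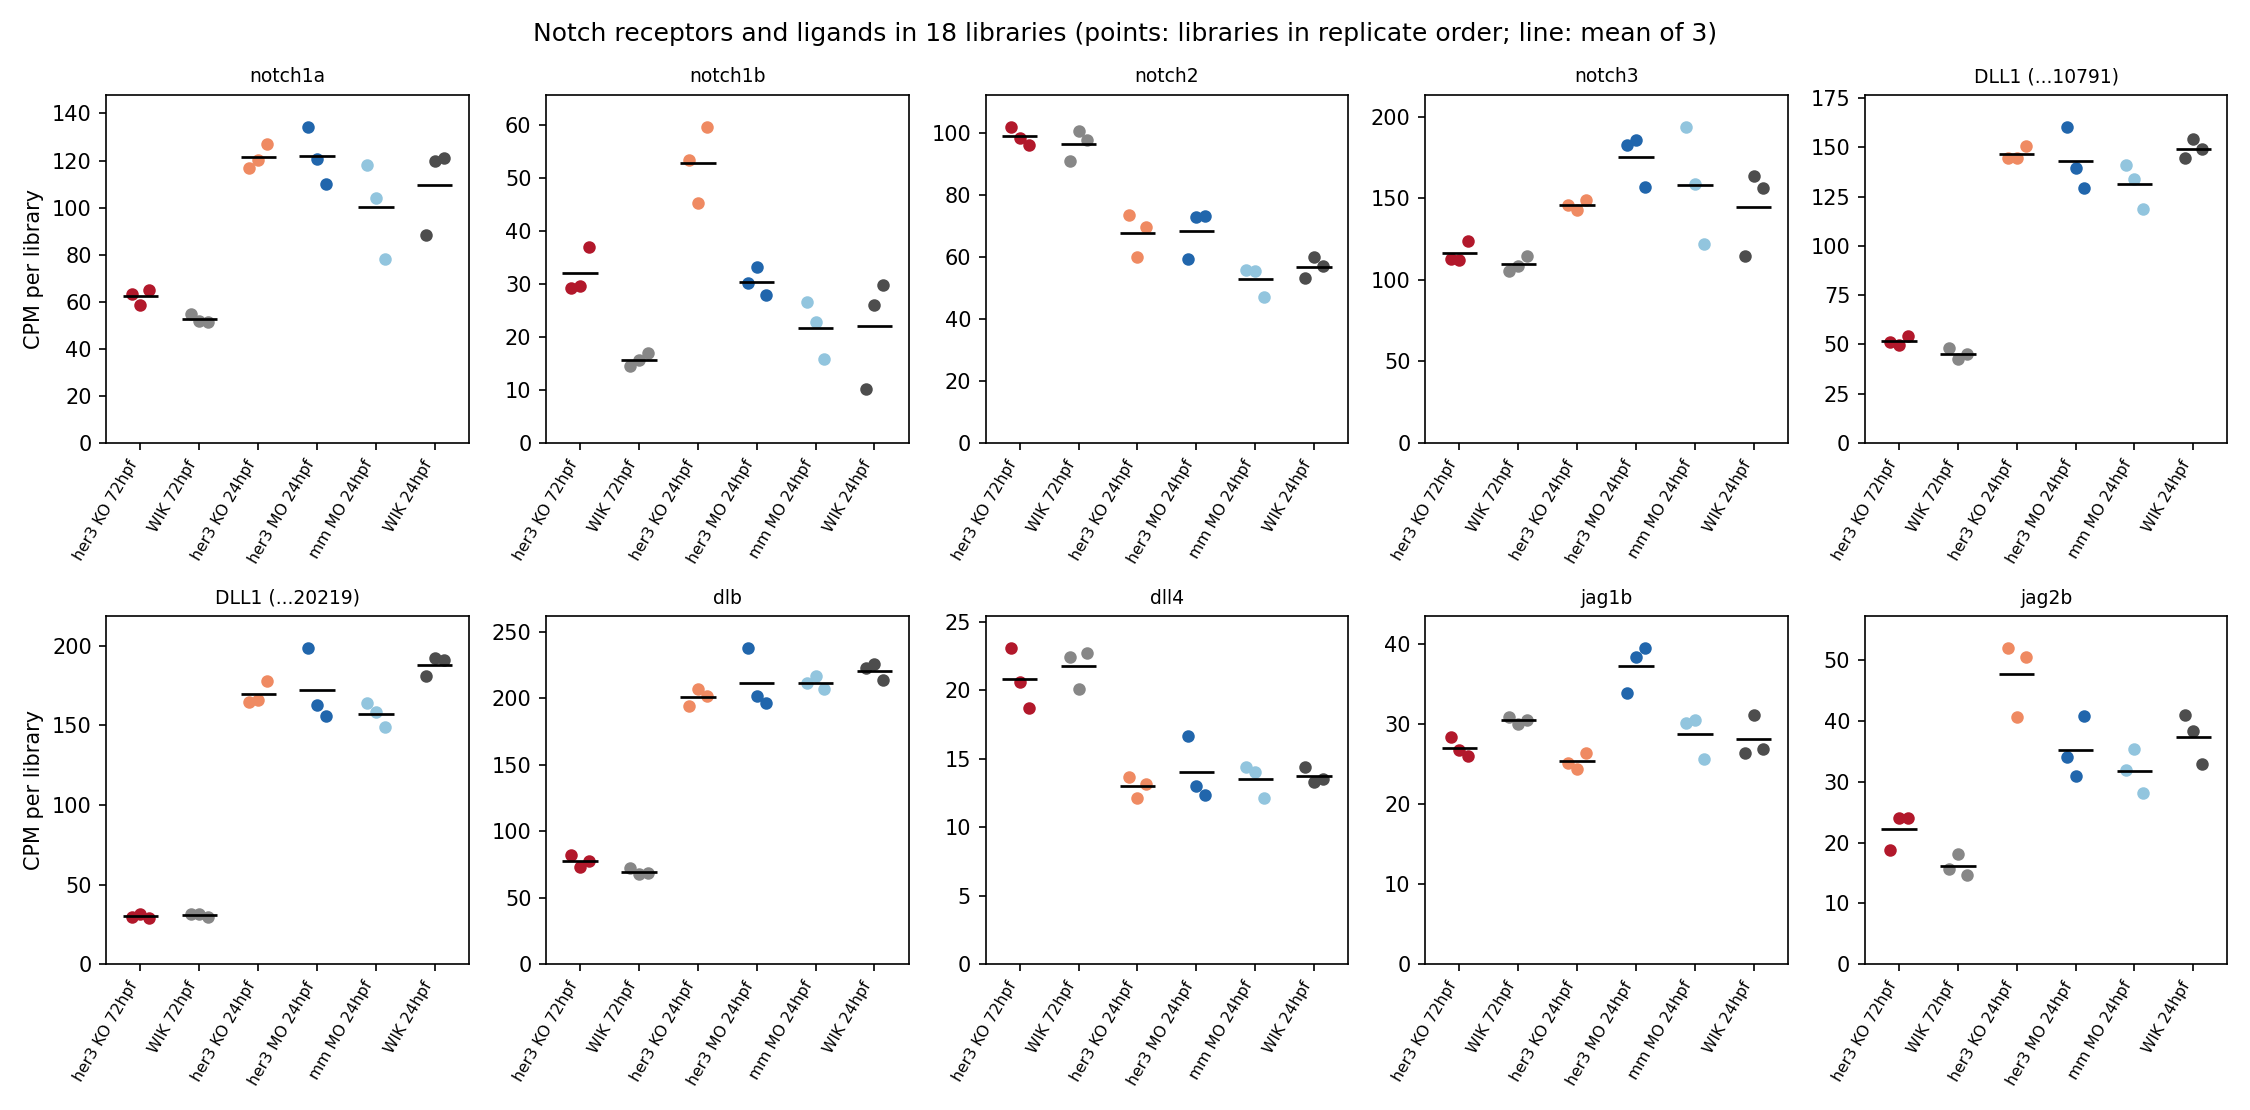
CPM of the 10 receptor and ligand genes in each of the 18 libraries, 1 panel a gene; points are libraries, coloured by group, and the black line is the mean of 3. notch1b stood at 45.3 to 59.8 CPM in the knockout-labelled libraries at 24 hpf, above every other library, and both DLL1 genes and dlb were far lower in every 72 hpf library than in any 24 hpf library.

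The receptor notch1b was higher in the libraries labelled knockout than in WIK at both ages. It is 1 of 2 zebrafish counterparts of mammalian Notch1. At 24 hpf it stood at 53.5, 45.3 and 59.8 CPM in the 3 knockout-labelled libraries, against 10.1, 26.1 and 29.8 CPM in the 3 WIK libraries. The groups did not overlap, and the WIK library at 10.1 CPM is replicate 1, which stands apart and held the fewest reads of the 18 libraries. The knockout-labelled mean was 2.40 times the WIK mean. On the scale of log2(CPM + 0.5), used for every difference here, the knockout-labelled libraries were higher by 1.37 ± 0.28 (SE; limma, Benjamini-Hochberg adjusted p = 0.0041). The difference was 0.90 ± 0.17 without WIK replicate 1 (limma adjusted p = 0.0024) and 0.90 ± 0.11 without the 4 libraries that stand apart (limma adjusted p = 4.9e-05). It passed the threshold of 0.05 in all 18 fits that left out 1 library. With only the knockout and WIK libraries of 24 hpf in the fit it did not pass (limma adjusted p = 0.12). In the same libraries 4 of 6 presomitic mesoderm markers were higher in the line, with sums of 101.7 to 120.6 CPM in the line and 73.3 to 86.8 CPM in WIK. Of 8 neural progenitor markers 2 were lower, both FABP7 genes, with sums over the list of 1274 to 1358 CPM in the line and 1361 to 1639 CPM in WIK. Of the neuronal, endothelial, muscle, erythroid, skin and hatching gland markers 0 passed. Over all genes 12.6% passed. The part of any of these cells in the notch1b result was not tested. In pools of whole embryos, more cells that carry a transcript and more transcript per cell cannot be told apart.

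At 72 hpf notch1b was again higher in the line. It stood at 29.3, 29.7 and 37.0 CPM in the 3 knockout-labelled libraries, against 14.5, 15.6 and 17.0 CPM in the 3 WIK libraries. The groups did not overlap, and the mean ratio was 2.04. The log2 difference was 1.00 ± 0.28 (limma adjusted p = 0.031) and 0.89 ± 0.11 without the libraries that stand apart (limma adjusted p = 5.1e-05). The lower p-value goes with the narrower spread left by that choice of libraries, not with a larger difference. The call was lost in each of the 6 fits that left out 1 of the compared libraries, with adjusted p up to 0.12 without knockout replicate 3, and after rescaling each library to the same total (0.062). With only the knockout and WIK libraries of 72 hpf in the fit the call held. The SE of 0.28 is drawn from all groups, and their spreads differ. The SD of notch1b was 47.6% of the mean in WIK at 24 hpf, 7.92% in WIK at 72 hpf and 13.5% in the line at 72 hpf. The test of the difference between the ages, knockout minus WIK at 72 hpf less the same at 24 hpf, gave -0.38 ± 0.40 (limma adjusted p = 0.61), and the sign of that value turned without WIK replicate 1 of 24 hpf (0.10 ± 0.23).

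With the morpholinos notch1b did not pass in any of its 3 comparisons over 18 libraries. It stood at 30.2, 33.2 and 28.0 CPM with her3-MO, at 26.5, 22.8 and 15.9 CPM with mm-MO, and at the WIK values above. The her3-MO values lay above all 3 mm-MO values, at a log2 difference of 0.50 ± 0.28 (limma adjusted p = 0.43). Against WIK, with which her3-MO overlapped, the difference was 0.60 ± 0.28 (limma adjusted p = 0.15) and moved with the WIK library left out: it was 0.12 without replicate 1 and 0.88 without replicate 3 (limma adjusted p = 0.035). Over all 6 groups notch1b was highest in the knockout line at 24 hpf and lowest in WIK at 72 hpf. The mean level was 32.0 ± 4.31 CPM in the line at 72 hpf, 30.4 ± 2.63 CPM with her3-MO, 22.0 ± 10.5 CPM in WIK at 24 hpf and 21.7 ± 5.42 CPM with mm-MO (SD, n = 3 each). Each of these neighbours overlapped the next, and WIK at 72 hpf overlapped mm-MO.

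The paralogue notch1a, the other counterpart of Notch1, passed at neither age in the line over 18 libraries. At 24 hpf it stood at 116.9, 120.4 and 127.0 CPM in the knockout-labelled libraries, against 88.2, 119.7 and 121.0 CPM in WIK. The groups overlapped, and the difference of 0.16 ± 0.14 did not pass (limma adjusted p = 0.45). At 72 hpf it stood at 63.1, 58.8 and 65.2 CPM in the knockout-labelled libraries, against 54.9, 51.7 and 51.3 CPM in WIK. There the line was higher in each library and the difference of 0.24 ± 0.14 did not pass over 18 libraries (limma adjusted p = 0.32). It passed at 0.21 ± 0.06 without the libraries that stand apart (limma adjusted p = 0.027) and with only the compared groups (0.030).

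The share of notch1b in the CPM of both notch1 genes set the line apart from WIK at both ages. This share compares a gene with its paralogue inside a library, so the scaling of the library drops out of it. At 24 hpf it was 31.4, 27.3 and 32.0% in the knockout-labelled libraries, against 10.3, 17.9 and 19.7% in WIK. At 72 hpf it was 31.7, 33.6 and 36.2% in the knockout-labelled libraries, against 20.9, 23.2 and 24.9% in WIK. The groups were separate at each age. With her3-MO the share was 18.3, 21.6 and 20.3%, against 18.3, 18.0 and 16.9% with mm-MO, and these ranges met at their ends. An exact permutation test of 3 against 3 libraries cannot give a two-sided p below 0.10, so the shares are given without one. CPM is not per length, so the share is not a share of transcripts.

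**Figure D2:**
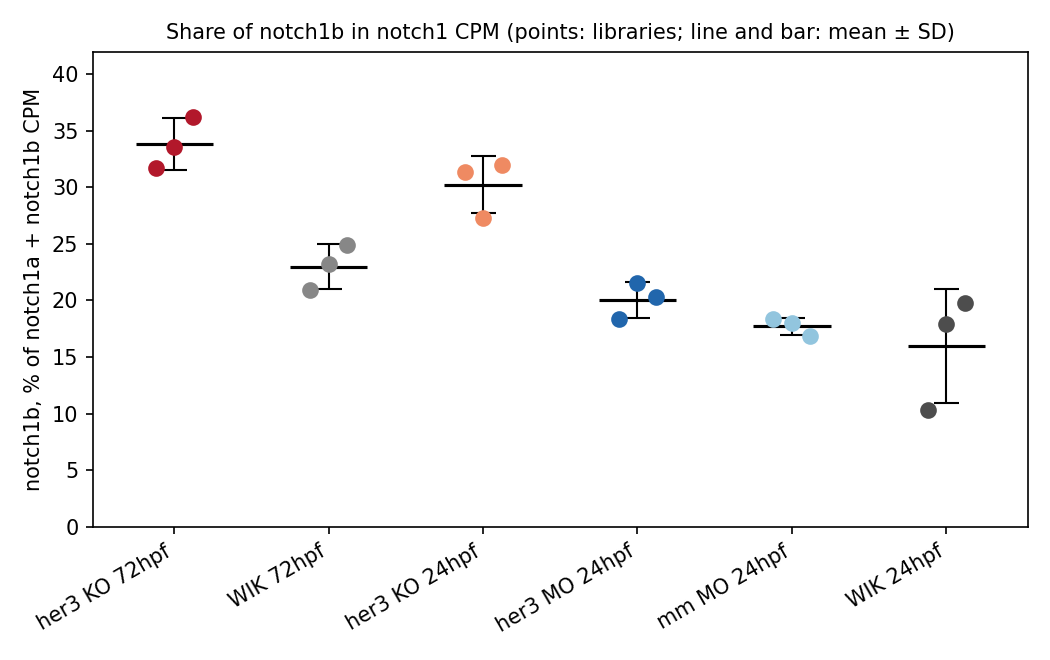
Share of notch1b in the summed CPM of notch1a and notch1b, in %, for each library of the 6 groups; points are libraries, the line is the mean and the bar ± SD over 3. The knockout-labelled libraries lie at 27.3 to 36.2% and all other libraries at 10.3 to 24.9%.

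The receptor notch2 differed between the morpholinos. It stood at 59.4, 73.0 and 73.3 CPM with her3-MO, against 55.9, 55.4 and 47.2 CPM with mm-MO. The groups did not overlap, and the lowest mm-MO value is that of replicate 3, which stands apart. The log2 difference was 0.37 ± 0.10 (limma adjusted p = 0.046), and 0.39 ± 0.08 without the libraries that stand apart (limma adjusted p = 0.0032). It was 0.29 ± 0.10 without mm-MO replicate 3 alone (limma adjusted p = 0.17). The call held in 3 of the 18 fits that left out 1 library and was lost after rescaling to the same total (0.082) and with only the compared groups (0.23). Against WIK, at 53.4, 60.05 and 57.2 CPM, her3-MO overlapped and the difference of 0.26 ± 0.10 did not pass (limma adjusted p = 0.076). It passed without the libraries that stand apart, at 0.32 ± 0.08 (limma adjusted p = 0.0091). The knockout line stood at 73.5, 60.05 and 69.8 CPM at 24 hpf, 0.25 ± 0.10 from WIK (limma adjusted p = 0.11), and at 99.0 ± 2.95 CPM at 72 hpf, beside 96.6 ± 4.90 CPM in WIK (SD, n = 3 each).

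notch3, the fourth receptor, which is prominent in neural progenitors and mural cells, did not pass in any of the 5 comparisons between treatments. At 24 hpf its mean level was 145.8 ± 2.92 CPM in the knockout line, 174.9 ± 15.9 CPM with her3-MO, 158.1 ± 35.9 CPM with mm-MO and 144.6 ± 26.2 CPM in WIK. In WIK the wide SD came with the library that stands apart: replicate 1 had 114.7 CPM beside 163.3 and 156.0 CPM. With mm-MO the libraries were spread about evenly, at 193.8, 158.6 and 122.0 CPM. The last of these is replicate 3, which stands apart.

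The Delta ligands DLL1 (both genes) and dlb did not pass between the line and WIK at either age over 18 libraries. At 24 hpf DLL1 (ENSDARG00000010791) averaged 146.6 ± 3.55 CPM in the line and 149.2 ± 4.75 CPM in WIK, and DLL1 (ENSDARG00000020219) averaged 169.5 ± 7.04 CPM in the line and 188.1 ± 6.22 CPM in WIK (SD, n = 3 each). dlb averaged 200.7 ± 6.42 CPM in the line and 220.5 ± 6.48 CPM in WIK. The groups did not overlap for DLL1 (ENSDARG00000020219), at a log2 difference of -0.15, or for dlb, at -0.14, and neither passed (limma adjusted p = 0.24 for both). Without the libraries that stand apart DLL1 (ENSDARG00000020219) passed, at -0.18 ± 0.05 (limma adjusted p = 0.029).

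At 72 hpf DLL1 (ENSDARG00000010791) averaged 51.7 ± 2.26 CPM in the line and 45.1 ± 2.78 CPM in WIK, a log2 difference of 0.20 ± 0.08 that did not pass (limma adjusted p = 0.16). dlb averaged 77.4 ± 4.69 CPM in the line and 69.4 ± 2.37 CPM in WIK, 0.16 ± 0.07 apart (limma adjusted p = 0.21). For both genes every library of the line lay above every WIK library. The difference of dlb between the ages had an unadjusted p of 0.012 and did not pass after adjustment over all genes (0.29 ± 0.10, limma adjusted p = 0.12); without the libraries that stand apart it was 0.29 ± 0.08 and passed (limma adjusted p = 0.030).

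With mm-MO, DLL1 (ENSDARG00000020219) lay close to the threshold of the test against WIK. DLL1 (ENSDARG00000020219) stood at 164.1, 158.1 and 148.7 CPM with mm-MO, against 180.9, 192.2 and 191.1 CPM in WIK. The groups did not overlap, and the log2 difference of -0.26 ± 0.08 lay at the threshold without passing it (limma adjusted p = 0.050). It passed with a pseudocount of 1 (-0.26 ± 0.08), with median-ratio size factors (-0.29 ± 0.08, limma adjusted p = 0.032) and without the libraries that stand apart (-0.25 ± 0.06, limma adjusted p = 0.0081). DLL1 (ENSDARG00000010791) was also lower in every mm-MO library than in any WIK library, at -0.19 ± 0.08 (limma adjusted p = 0.16). With her3-MO, DLL1 (ENSDARG00000020219) stood at 198.7, 163.0 and 155.8 CPM; the first is replicate 1, which stands apart and lies above all WIK libraries. Without the libraries that stand apart its difference from WIK was -0.27 ± 0.06 (limma adjusted p = 0.0045), and with them -0.13 ± 0.08 (limma adjusted p = 0.26).

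dll4, the Delta ligand of endothelial tip cells and arteries, passed in none of the 5 comparisons between treatments. At 24 hpf it stood at 13.0 ± 0.766 CPM in the line, 14.0 ± 2.30 CPM with her3-MO, 13.5 ± 1.20 CPM with mm-MO and 13.7 ± 0.572 CPM in WIK. At 72 hpf it stood at 20.8 ± 2.19 CPM in the line and 21.7 ± 1.45 CPM in WIK (SD, n = 3 each). Its 5 log2 differences between treatments lay between -0.08 and 0.04. The summed CPM of 5 endothelial markers was 177.2 to 182.0 CPM in the line at 24 hpf and 155.5 to 162.8 CPM in WIK. Of these 5 markers 0 passed, beside 12.6% of all genes.

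Of the Jagged ligands, jag1b was higher with her3-MO. It is 1 of 2 counterparts of mammalian Jag1, which acts in craniofacial, pancreatic and inner-ear development. It stood at 33.9, 38.4 and 39.5 CPM with her3-MO, against 30.1, 30.5 and 25.7 CPM with mm-MO and 26.3, 31.2 and 26.9 CPM in WIK. Every her3-MO library lay above every library of both controls. The log2 difference was 0.37 ± 0.09 from mm-MO (limma adjusted p = 0.030) and 0.40 ± 0.09 from WIK (limma adjusted p = 0.0092). Without the libraries that stand apart it was 0.36 ± 0.08 from mm-MO (limma adjusted p = 0.0057) and 0.42 ± 0.08 from WIK (limma adjusted p = 0.0011). The call against mm-MO held in 14 of the 18 fits that left out 1 library; the highest adjusted p was 0.13, without her3-MO replicate 2, and it was 0.12 without mm-MO replicate 3. With only the compared groups neither call held (0.21 from mm-MO and 0.20 from WIK). These comparisons share the her3-MO libraries and are not independent of each other.

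In the knockout line jag1b did not pass at either age. It stood at 25.1, 24.4 and 26.4 CPM at 24 hpf, a log2 difference of -0.14 ± 0.09 from WIK (limma adjusted p = 0.30). At 72 hpf it stood at 28.4, 26.8 and 26.0 CPM in the line, against 30.9, 29.97 and 30.5 CPM in WIK, and every library of the line lay below every WIK library (-0.17 ± 0.09, limma adjusted p = 0.27). The difference between the knockout effect (the line less WIK) and the morpholino effect (her3-MO less mm-MO) at 24 hpf was tested directly. It was -0.51 ± 0.12 for jag1b (limma adjusted p = 0.017). It was -0.55 ± 0.10 without the libraries that stand apart (limma adjusted p = 0.0017) and did not pass after rescaling (0.076), with only the compared groups (0.070) or without her3-MO replicate 3 (0.051).

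jag2b, a counterpart of mammalian Jag2, was higher in the line at 72 hpf. It stood at 18.7, 24.1 and 24.0 CPM in the knockout-labelled libraries, against 15.6, 18.2 and 14.6 CPM in WIK. The groups did not overlap, though knockout replicate 1 and WIK replicate 2 lay close together. The log2 difference was 0.45 ± 0.14 (limma adjusted p = 0.047). It held in 8 of the 18 fits that left out 1 library and was lost without the libraries that stand apart (0.39 ± 0.15, limma adjusted p = 0.092). It was also lost with voom (adjusted p = 0.074) and lay at the threshold without passing it after rescaling (0.050). At 24 hpf jag2b stood at 52.1, 40.6 and 50.5 CPM in the line, against 40.9, 38.3 and 33.0 CPM in WIK, and the ranges overlapped at 1 library each (0.34 ± 0.14, limma adjusted p = 0.12). Sums of marker CPM also differed at 72 hpf, and their part in the notch1b and jag2b results was not tested. Few single markers passed: 1 of 3 erythroid, 1 of 8 neuronal, 1 of 5 endothelial and 1 of 6 presomitic mesoderm markers were higher. Of 4 skin markers 1 was lower, and of 2 hatching gland markers 1 was lower. Of 5 muscle markers 0 passed, and of 8 neural progenitor markers 0 passed. Over all genes 10.8% passed. A sum is ruled by the most abundant genes of its list. The summed CPM of 3 erythroid markers was 135.2 to 196.8 CPM in the line and 113.2 to 129.4 CPM in WIK, and that of 8 neuronal markers was 2632 to 2882 CPM in the line and 2231 to 2523 CPM in WIK. The summed CPM of 4 skin markers was 5052 to 5647 CPM in the line and 6505 to 6991 CPM in WIK, and that of 5 muscle markers 13550 to 15780 CPM in the line and 16750 to 18450 CPM in WIK.

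Counted over the 10 genes, few passed between treatments. In the line against WIK at 24 hpf notch1b was higher and 9 of the 10 did not pass, with log2 differences between -0.15 and 0.34; of all 20738 genes tested, 12.6% passed. At 72 hpf notch1b and jag2b were higher and 8 did not pass, beside 10.8% of all genes. With her3-MO against mm-MO notch2 and jag1b were higher and 8 did not pass, beside 3.35% of all genes. With her3-MO against WIK jag1b was higher and 9 did not pass, beside 14.5% of all genes. With mm-MO against WIK limma called 0 of the 10, with 2 at an unadjusted p under 0.05 and 1 called by voom, beside 10.5% of all genes. The number of members whose groups did not overlap was 3 in the line at 24 hpf, 6 in the line at 72 hpf, 3 for her3-MO against mm-MO, 1 for her3-MO against WIK and 2 for mm-MO against WIK. The share of all genes without overlap was 30.8%, 35.7%, 20.8%, 30.5% and 23.2% in the same order. The 3 comparisons against WIK at 24 hpf share its 3 libraries.

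The median log2 difference of the 10 genes was 0.00 in the line at 24 hpf, where that of all genes was 0.03, and 0.12 at 72 hpf, where that of all genes was -0.01. It was 0.15 for her3-MO against mm-MO, beside 0.00 for all genes, 0.09 for her3-MO against WIK, beside 0.01, and -0.08 for mm-MO against WIK, beside 0.03. Of the 10 genes 0 passed the test of a difference between the ages in the knockout effect, by limma and by voom, with 1 at an unadjusted p under 0.05, beside 4.64% of all genes. In the test of the knockout effect against the morpholino effect jag1b alone passed, beside 7.66% of all genes. notch1b had 0.87 ± 0.40 there (limma adjusted p = 0.24), and 0.60 ± 0.17 without the libraries that stand apart, which passed (limma adjusted p = 0.022).

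**Figure D3:**
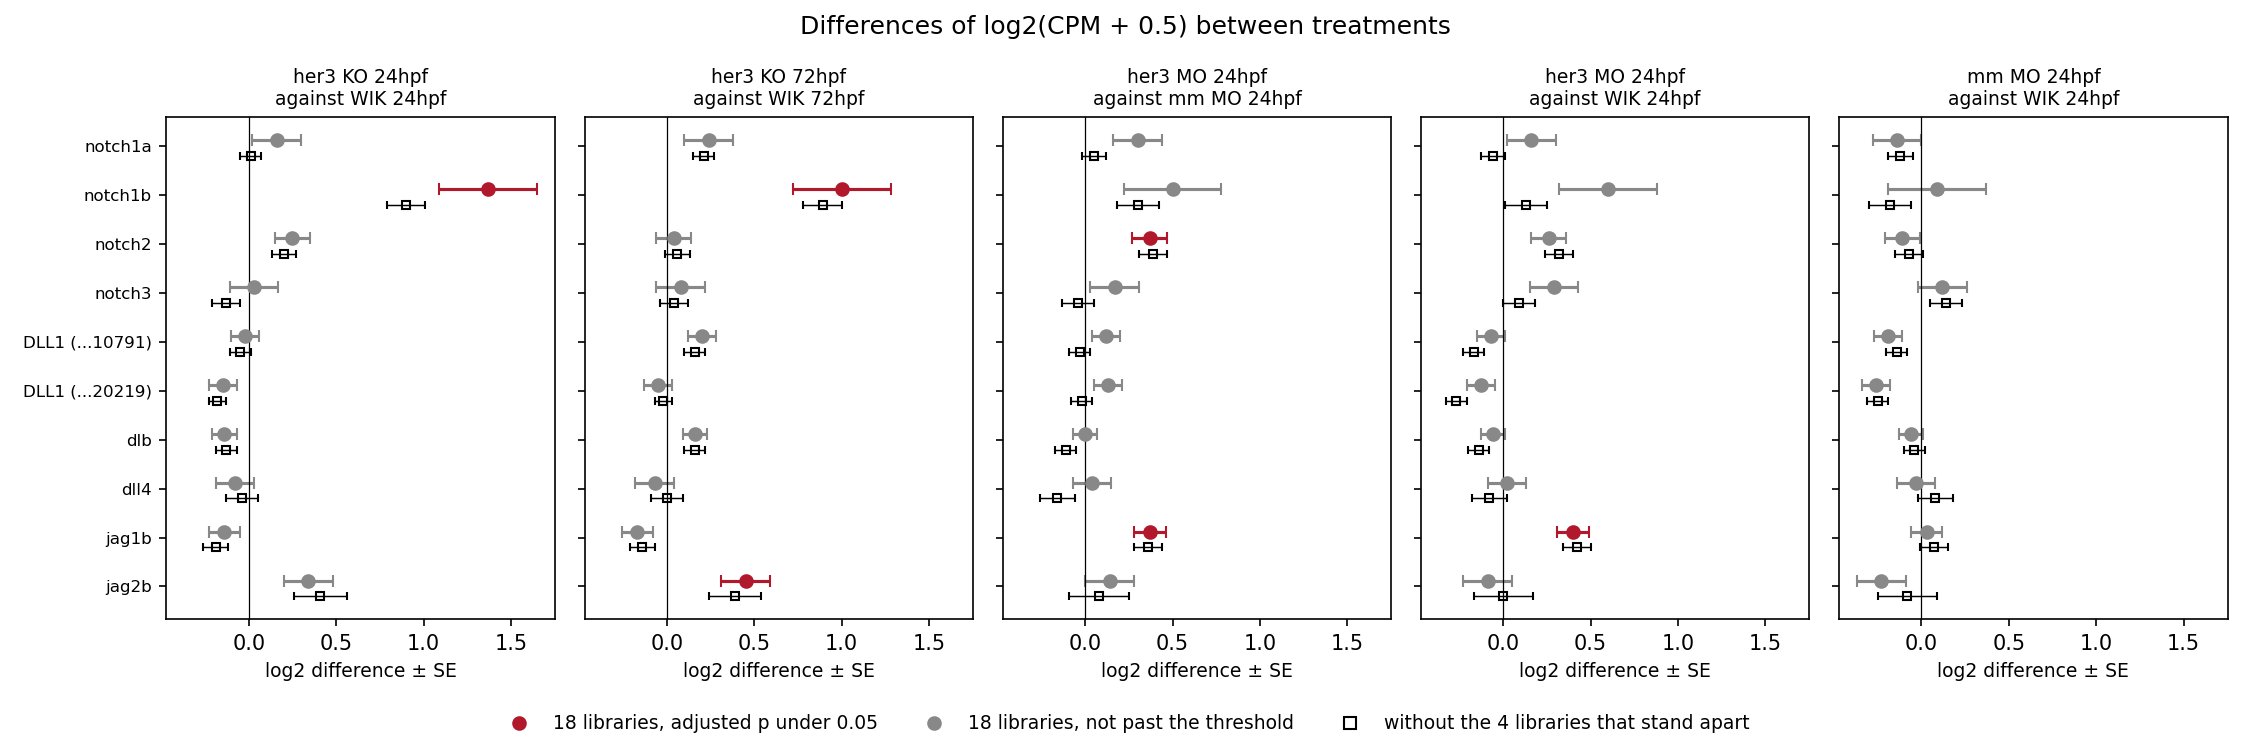
Difference in log2(CPM + 0.5) ± SE of each receptor and ligand gene in 5 comparisons, the named first group minus the second; circles use 18 libraries (red past an adjusted p of 0.05) and open squares leave out the 4 libraries that stand apart. notch1b in the knockout line has the highest value in both knockout panels, and jag1b is past the threshold in both her3-MO panels.

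More of the genes passed between the ages than between treatments. In the line 7 of the 10 genes were lower and 2 higher at 72 than at 24 hpf, and in WIK 6 were lower and 2 higher. Over all genes 74.9% passed in the line (37.8% lower and 37.1% higher) and 74.5% in WIK (36% lower and 38.6% higher), so most genes changed with age. The ages did not overlap for 9 of the 10 in the line, beside 82.3% of all genes, and for 8 of the 10 in WIK, beside 73.9%. The members' median was -0.83 in the line, where that of all genes was -0.04, and -0.71 in WIK, where that of all genes was 0.02.

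The Delta ligands DLL1 (both genes) and dlb had the largest falls of the 10. DLL1 (ENSDARG00000020219) stood at 29.6, 31.5 and 28.7 CPM in the line at 72 hpf, against 164.9, 166.1 and 177.6 CPM in the line at 24 hpf. In WIK it stood at 31.8, 31.6 and 29.8 CPM at 72 hpf, against 180.9, 192.2 and 191.1 CPM at 24 hpf. Every 72 hpf library lay far below every 24 hpf library. The log2 difference was -2.48 ± 0.08 in the line and -2.58 ± 0.08 in WIK (limma adjusted p = 8.2e-14 and 6.1e-14). DLL1 (ENSDARG00000010791) fell by 1.5 in the line and by 1.72 in WIK on the same scale, and dlb fell by 1.37 in the line and by 1.66 in WIK. Over the same ages 8 of 8 neuronal markers rose and 6 of 6 presomitic mesoderm markers fell in each genotype, and their part in these falls was not tested.

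The receptors changed less and not all one way. notch1a fell by 0.96 in the line and by 1.04 in WIK (limma adjusted p = 7.1e-06 and 2.7e-06). notch3 differed by -0.33 ± 0.14 in the line and -0.38 ± 0.14 in WIK (limma adjusted p = 0.046 and 0.023), and the calls were lost after rescaling to the same total (0.37 in the line and 0.32 in WIK) and held in 6 (line) and 14 (WIK) of the 18 fits that left out 1 library. notch1b fell by 0.71 in the line (limma adjusted p = 0.031), a call lost after rescaling (0.13). In WIK notch1b had -0.34 ± 0.28 (limma adjusted p = 0.29), which became -0.81 without WIK replicate 1 of 24 hpf (limma adjusted p = 0.0004). notch2 rose, by 0.55 ± 0.10 in the line and 0.76 ± 0.10 in WIK (limma adjusted p = 7.4e-05 and 2e-06). Its 72 hpf libraries, at 91.2 to 102.2 CPM, lay above every 24 hpf library.

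Of the other ligands dll4 rose and jag2b fell. dll4 was higher at 72 hpf by 0.65 ± 0.11 in the line and by the same amount in WIK (limma adjusted p = 7e-05 and 8e-05), while 5 of 5 endothelial markers were lower in the line and 4 of 5 in WIK. jag2b was lower by 1.08 in the line and by 1.19 in WIK, as log2 differences of -1.08 ± 0.14 and -1.19 ± 0.14 (limma adjusted p = 2.2e-06 and 7.1e-07). jag1b did not pass in either genotype, at 0.09 ± 0.09 in the line and 0.12 ± 0.09 in WIK (limma adjusted p = 0.35 and 0.24). After rescaling to the same total jag1b passed in WIK, at 0.28 (limma adjusted p = 0.042).

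**Figure D4:**
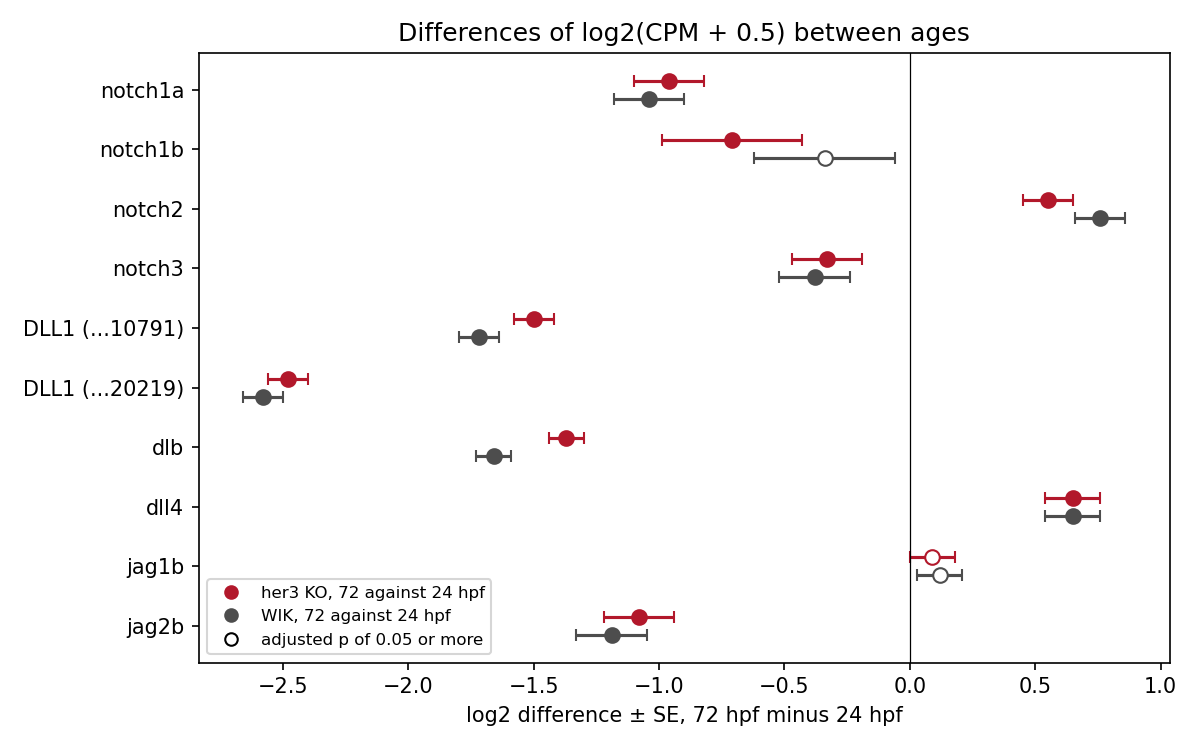
Difference in log2(CPM + 0.5) ± SE between 72 and 24 hpf for each receptor and ligand gene, in the knockout line and in WIK; filled points are past an adjusted p of 0.05 and open points are not. Both DLL1 genes and dlb lie between -1.37 and -2.58, and notch2 and dll4 between 0.55 and 0.76.

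The order of the groups by mean level differed between genes. For notch1a the 4 groups of 24 hpf each overlapped the next, and below them the line and then WIK at 72 hpf stood apart. For notch3 every group overlapped its neighbour. For notch2 both 72 hpf groups were highest and overlapped, and the 24 hpf groups followed in the order her3-MO, line, WIK and mm-MO, each overlapping the next. For DLL1 (ENSDARG00000020219) WIK, her3-MO and the line at 24 hpf overlapped in turn, mm-MO lay below WIK and the line but overlapped her3-MO, and both 72 hpf groups overlapped at the bottom. For dlb the line was the lowest group of 24 hpf, below mm-MO without overlap. For jag1b her3-MO stood alone at the top and all 5 other groups overlapped in turn. For jag2b the line was the highest group at each age.

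The genes whose log2 levels were most like each member over the 18 libraries were found among 17159 candidates and are a description, since age divides the libraries. For notch1b they were TNRC18 (Pearson r = 0.961), CDH2 (0.922) and VEZF1 (ENSDARG00000061030; 0.910). CDH2 encodes N-cadherin, an adhesion protein. For notch1a they were DNMT1 (0.982), the maintenance DNA methyltransferase, SF3A1 (0.980), a splicing factor, and TK1 (0.977), thymidine kinase. DLL1 (ENSDARG00000020219) was most like nr2f5 (0.998), DLL1 (ENSDARG00000010791) like meis3 (0.996) and dlb like PPM1G (0.996). For jag1b, whose level hardly varied with age, the highest value was 0.869, with UGGT1, a glycoprotein folding sensor. The highest was 0.960 for notch2 (utrn), 0.972 for notch3 (znf292a), 0.963 for dll4 (UNCX, ENSDARG00000037760) and 0.953 for jag2b (znf1057).

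Beyond the 10 genes, 77 other pathway genes passed the filter: 5 further receptors and ligands, 28 genes that process ligands and receptors, 14 of the nuclear complex and 30 targets. In the line at 24 hpf 4 were higher and 5 lower of these 77, near the share of 12.6% over all genes. The 4 higher ones were all targets, and so were 3 of the 5 lower ones. The median log2 difference of the 30 targets was 0.0. mespab and mespbb, which act in somite segmentation, were higher by 0.86 ± 0.16 and 0.69 ± 0.14 (limma adjusted p = 0.0016 and 0.003). Both levels were low, near the filter of 1 CPM. mespab averaged 2.09 CPM in the line and 0.9 CPM in WIK, and mespbb 1.33 CPM in the line and 0.63 CPM in WIK. her4.4, a her4-cluster repressor, averaged 33.0 CPM in the line and 57.7 CPM in WIK, and fell by 0.79 (limma adjusted p = 4.5e-05). DTX4, a Deltex family ubiquitin ligase gene, fell by 0.84 (limma adjusted p = 0.00039). The her4 genes and her15 genes are near-identical copies, so their counts are uncertain. The markers given beside notch1b hold for these genes too: her7, a target that was higher (0.94 ± 0.20, limma adjusted p = 0.0054), is also 1 of the 4 higher presomitic mesoderm markers, and the part of these cells was not tested. Of the 77 genes, 7 were higher and 7 lower without the libraries that stand apart.

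At 72 hpf 2 of the 77 pathway genes were higher in the line and 5 lower, near the share of 10.8% over all genes. Genes of the her4 cluster went both ways: her4.4 averaged 16.1 CPM in the line and 31.9 CPM in WIK, and fell by 0.97 (limma adjusted p = 5.2e-06), while her4.2 averaged 44.0 CPM in the line and 25.9 CPM in WIK, higher by 0.75 ± 0.09 (limma adjusted p = 2.5e-05). ascl1b, a proneural factor gene, fell by 0.77 (limma adjusted p = 2.9e-05), and neurl1ab, a Neuralized family gene of ligand processing, fell by 0.85 (limma adjusted p = 0.004). neurl1ab was low, at a mean of 1.159 CPM in the line and 2.455 CPM in WIK. The counts were 11 higher and 7 lower without the libraries that stand apart. With her3-MO against mm-MO, where 3.35% of all genes passed, her4.2 alone was higher, by 0.46 ± 0.09 (limma adjusted p = 0.0074), and 0 were lower; without the libraries that stand apart 4 were higher and 3 lower.

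Against WIK the targets that passed were all lower in both morpholino groups, in the fit of all 18 libraries. The median log2 difference of the 30 targets was -0.23 with her3-MO, where that of all genes was 0.01. It was -0.06 with mm-MO, where that of all genes was 0.03, so the list as a whole moved little there. With her3-MO 12 of 30 targets were lower and 0 higher, where 14.5% of all genes passed and 1606 of 20738 were lower. With mm-MO 10 of 30 were lower and 0 higher, where 10.5% of all genes passed and 1137 of 20738 were lower. In both, many of the lower targets are her4 and her15 genes. These near-identical copies have uncertain counts, so they may not be separate results. In the same comparisons 3 of 8 neural progenitor markers were lower in each, with sums of 1072 to 1365 CPM with her3-MO, 1146 to 1278 CPM with mm-MO and 1361 to 1639 CPM in WIK. Of 5 muscle markers 3 were lower with her3-MO, with sums of 3769 to 6917 CPM with her3-MO and 6656 to 7408 CPM in WIK. her4.1 is on the target list and the neural progenitor list, and the part of these cells in the target counts was not tested. her4.4 was lower by 0.72 with her3-MO and by 0.53 with mm-MO, as log2 differences of -0.72 ± 0.10 and -0.53 ± 0.10 (limma adjusted p = 0.0003 and 0.0026). her4.2 was lower by 0.56 with her3-MO and by 1.02 with mm-MO, as log2 differences of -0.56 ± 0.09 and -1.02 ± 0.09 (limma adjusted p = 0.0012 and 2.1e-06). her4.5 had -0.77 ± 0.15 with her3-MO and -0.94 ± 0.15 with mm-MO (limma adjusted p = 0.0056 and 0.001), her4.3 had -0.75 ± 0.15 with her3-MO (limma adjusted p = 0.0047) and her15.1 had -0.46 ± 0.10 with mm-MO (limma adjusted p = 0.0061). These comparisons share the WIK libraries. After rescaling each library to the same total, 2 targets were higher and 7 lower with her3-MO. That scaling moved the median of all genes to 0.17 with her3-MO and 0.13 with mm-MO, and of the genes called it put 80.3% higher with her3-MO, against 46.4% as deposited, and 71.2% higher with mm-MO, against 47.6%. For her3-MO against mm-MO the higher share was 53.6% rescaled and 43.4% as deposited. Among the receptors and ligands outside the 10, jag1a, the paralogue of jag1b, averaged 17.2 CPM with mm-MO and 27.4 CPM in WIK, a log2 difference of -0.69 ± 0.19 (limma adjusted p = 0.028); it was the only one of the 5 that passed between treatments over 18 libraries.

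Between the ages 25 of 30 targets were lower at 72 hpf in the line, where 37.8% of all genes were lower, and 26 of 30 in WIK, where 36% were lower, with 2 higher in each. her8a had log2 differences of -2.37 in the line and -2.52 in WIK (limma adjusted p = 1.6e-13 and 9e-14), and her12 had -1.71 in the line and -1.67 in WIK (limma adjusted p = 2.5e-11 and 3.3e-11). LFNG, the gene of a glycosyltransferase that modifies Notch, had -1.41 in the line and -1.56 in WIK (limma adjusted p = 8.4e-12 and 2.4e-12). DNER, a gene of a neuronal Notch-binding protein, averaged 12.9 CPM at 72 hpf and 0.267 CPM at 24 hpf in the line, and 10.6 CPM at 72 hpf and 0.0913 CPM at 24 hpf in WIK. The knockout effect differed between the ages for 2 of the 77 genes upward and 5 downward, where 4.64% of all genes passed: among them her4.2 had 0.58 ± 0.13, ascl1b -0.89 ± 0.13, RBPJ (ENSDARG00000003398) -0.44 ± 0.09 and her7 -1.26 ± 0.28 (limma adjusted p = 0.013, 0.0008, 0.01 and 0.018). her7 was very low at 72 hpf, at a mean of 0.094 CPM in the line and 0.240 CPM in WIK. At 24 hpf it averaged 3.19 CPM in the line and 1.40 CPM in WIK. Its value at 72 hpf thus rests on few reads. The knockout effect differed from the morpholino effect for mespab (1.05 ± 0.22), her4.4 (-0.60 ± 0.14) and neurl1ab (-0.88 ± 0.25), where 7.66% of all genes passed (limma adjusted p = 0.0069, 0.012 and 0.039).

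**Figure D5:**
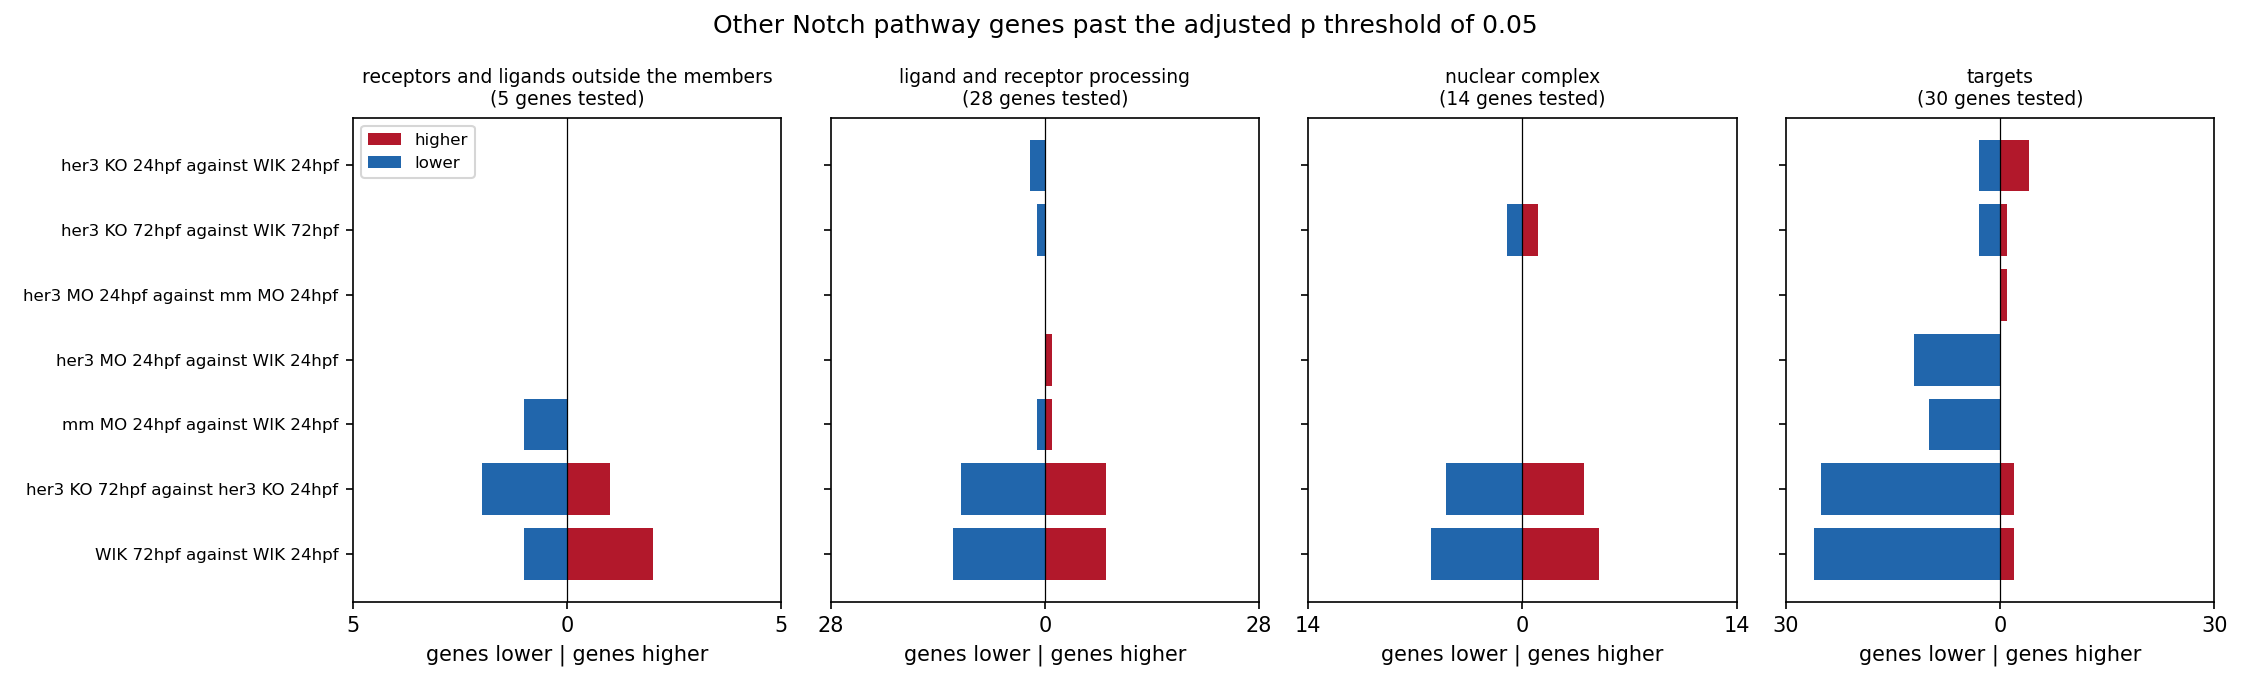
Number of genes higher (bars to the right) and lower (bars to the left) at an adjusted p under 0.05 in the 4 lists of other pathway genes, for each comparison. The targets have 12 lower genes with her3-MO and 10 with mm-MO against WIK, and 25 and 26 lower genes at 72 hpf in the line and in WIK.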

How the data were processed

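Polyadenylated RNA of 18 pools of whole embryos was sequenced from directional libraries, per the labels' protocols. The deposited values are CPM, counts scaled to library size; the submitters' processing notes name the build danRer11, edgeR 3.34.0, featureCounts 2.0.2, HISAT2 2.2.1 and SAMtools 1.10. The CPM the authors deposited sum to 912145 to 1206849 per library, so a scaling other than the plain total was applied. For strand and multimapping, the setting is not given in the sources used here. The reads per library (14214136 to 23135995) were recovered from the steps between low CPM values. Symbols were matched for 23539 of 25535 genes.

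A gene entered the tests when 3 or more libraries reached 1 CPM (20738 of 25535; 4797 removed). log2(CPM + 0.5) was fitted for 6 groups over all 18 libraries with limma 3.58.1 in R 4.3.3, with 12 residual degrees of freedom and Benjamini-Hochberg adjustment over all genes tested; an adjusted p under 0.05 passed. The count tests of edgeR and DESeq2 were not run. The deposited values are CPM, and reads recovered from them entered the tests of the data only through voom, as an alternative. The script was tested on simulated data for the line against WIK at 24 hpf, where it called 30.6% of 1.5-fold and 87.5% of 2-fold changes. The simulation gave every library the same dispersion and held no library that stands apart. A difference that did not pass is therefore not shown to be absent. Tables and figures used Python 3.11.15, numpy 2.4.6, pandas 2.3.3, scipy 1.17.1 and matplotlib 3.10.9.

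The 10 genes and the gene lists were chosen with earlier results of these data known. All 10 are described; of the other pathway genes, up to 4 per comparison were named, by smallest adjusted p among those that passed, and the other names (her7 at 24 hpf, jag1a) and the libraries left out were chosen after their values were seen. Same-numbered replicates of different groups were compared: 13 of 45 pairs of deviations correlated above 0.1 (range -0.583 to 0.378). The labels do not say whether a number marks a shared batch, and this check cannot exclude one. The main fit has no replicate block. No sequences or coordinates are given.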

Additional observations from a re-analysis of the deposited data

Results flagged for a closer look

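For jag1b at 24 hpf the difference of the line from WIK and that of her3-MO from mm-MO differed by -0.51 ± 0.12 on the log2 scale. It was the only such difference among the 10 genes to pass over 18 libraries (limma adjusted p = 0.017). In the line, the her3 allele and the background cannot be told apart. jag1b averaged 25.3 CPM in the knockout-labelled libraries and 28.1 CPM in WIK, and 37.2 CPM with her3-MO and 28.8 CPM with mm-MO (n = 3 each). The 3 knockout-labelled libraries were lower than the WIK mean but overlapped the WIK libraries, and that difference did not pass (-0.14 ± 0.09, limma adjusted p = 0.30). The 3 her3-MO libraries lay above every mm-MO library. The difference of effects did not pass after rescaling (limma adjusted p = 0.076), with only the compared groups (0.070) or without her3-MO replicate 3 (0.051).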

How the results depend on the processing

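The number of the 10 genes called depended on the setting. When the fit held the compared groups alone it was 0 in place of 1 for the line at 24 hpf, 0 in place of 2 for her3-MO against mm-MO, 0 in place of 1 for her3-MO against WIK and 0 in place of 1 for the knockout effect less the morpholino effect. After rescaling to the same total it was 0 in place of 2 for her3-MO against mm-MO and for the line at 72 hpf, 0 in place of 1 for the difference of effects, and 2 in place of 1 for her3-MO against WIK. Without the 4 libraries that stand apart, left out after seeing the data, it was 2 for the line at 24 hpf, 3 for her3-MO against WIK, 2 for the difference of effects, and 1 in place of 0 for mm-MO against WIK and for the difference between ages. For mm-MO against WIK it was also 1 with a pseudocount of 1, with median-ratio size factors and with voom, and voom gave 1 in place of 2 for the line at 72 hpf. With no filter on low values it was 1 in place of 2 for her3-MO against mm-MO. The replicate block gave 1 in place of 2 for that comparison (notch2 lost, limma adjusted p = 0.074) and for the line at 72 hpf (jag2b lost, 0.073). It gave 8 in place of 9 for the ages in the line (notch3 lost, 0.061), and the other counts were as without it. Whether the numbers mark a shared source is not known. Leaving out 1 library gave counts of 1 in every case for the line at 24 hpf, 0 to 2 for her3-MO against mm-MO, 1 to 3 for her3-MO against WIK, 0 to 1 for mm-MO against WIK, 0 to 2 for the line at 72 hpf, 7 to 9 for each age comparison, 0 for the difference between ages and 0 to 1 for the difference of effects. The cause was not tested. Over all genes, the fit of the compared groups alone called 906 in place of 2620 for the line at 24 hpf, 182 in place of 694 for her3-MO against mm-MO, 70 in place of 2997 for her3-MO against WIK, 154 in place of 2171 for mm-MO against WIK, 3528 in place of 2245 for the line at 72 hpf and 981 in place of 1589 for the difference of effects. Without the libraries that stand apart it was 2663 for her3-MO against mm-MO, 3376 for mm-MO against WIK, 4594 for the line at 72 hpf, 2201 in place of 963 for the difference between ages and 3741 for the difference of effects. Leaving out 1 library gave 1503 to 3388, 326 to 1243, 1021 to 5248, 1023 to 2936 and 1362 to 3113 for the line at 24 hpf, her3-MO against mm-MO, her3-MO against WIK, mm-MO against WIK and the line at 72 hpf, and 549 to 1222 and 1114 to 1865 for the difference between ages and of effects. The sign of notch1b for mm-MO against WIK turned to -0.18 without the libraries that stand apart and ranged from -0.38 to 0.38 when 1 library was left out, and its difference between ages from -0.66 to 0.10. Of 50 other differences with an unadjusted p of 0.05 or more, 28 changed sign in some alternative. edgeR and DESeq2 were listed as alternatives and were not run.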
